A study of Mus musculus with 45 samples.

Results

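Chromatin accessibility around 7 primitive endoderm genes was followed after acute depletion of SOX2, OCT4 or NANOG in mouse embryonic stem cells. The genes were Gata6, Gata4, Sox17, Sox7 and Foxa2, which encode transcription factors, Pdgfra, which encodes a receptor tyrosine kinase, and Dab2, which encodes an endocytic adaptor. A peak was taken as a member when its summit lay within 50 kb of the annotated 5′ end of 1 of these genes. The rule used no count of a peak in any library. The peak list was itself called on pooled libraries, and the genes were chosen with earlier results of these data known. This rule found 66 of the 184964 ATACseq peaks: 14 at Pdgfra, 11 each at Gata6 and Gata4, 10 each at Sox7 and Foxa2, 7 at Sox17 and 3 at Dab2.

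In each line the named factor carried an FKBP degron tag on both alleles, and 500 nM dTAG-13 was added to degrade it. SOX2-FKBP and NANOG-FKBP cells were made from E14 cells and OCT4-FKBP cells from V6.5 cells, and all were grown in serum-free 2i and LIF medium. Libraries came from NT cells, the controls, which received DMSO, and from cells after 2, 6 and 24 h of dTAG-13, and SOX2-FKBP cells were also sampled at 0.5 and 1 h. Every group held 2 libraries except the treated NANOG-FKBP groups, which held 3. Each factor was tagged in 1 line, so line and factor cannot be told apart, and OCT4-FKBP cells also differ from the other lines in parental strain. The methods mention a further independent clone for SOX2, which the labels tie to no library. The labels do not say whether the libraries of a group came from separate cultures, and p-values then measure only the spread between these libraries.

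The inner cell mass divides into the epiblast, which keeps SOX2, OCT4 and NANOG, and the primitive endoderm, which turns on GATA6 and then SOX17, GATA4 and SOX7. NANOG is known to repress Gata6 in epiblast cells, while OCT4 is used in both lineages and can pair with SOX17 as well as with SOX2. Pdgfra marks the primitive endoderm early, and Dab2 and Foxa2 act in the later endoderm. The question was therefore whether the loss of each factor opened or closed chromatin at these loci, when, and whether the 3 depletions differed.

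The 31 libraries held between 1817191 and 17575631 counts in peaks, and member peaks held between 433 and 6310 counts per library. The 3 treated NANOG-FKBP libraries numbered replicate 2 were the shallowest, with 1817191 to 3272168 counts, of which 13.2% to 17.6% were in peaks of the mitochondrial chromosome, against 1.42% to 6.65% in the other libraries. Values are given as CPM, the count scaled to the TMM-normalised size of the library. To check the labelled cell type, peaks at the 5′ ends of 15 pluripotency genes were read in NT cells. They were found for 11 of the 15 genes, with medians of 18, 26.6 and 23.0 CPM per kb in SOX2-FKBP, OCT4-FKBP and NANOG-FKBP cells. Such peaks, with summits within 1 kb of the 5′ end, were found for 3 of the 7 member genes, with medians of 4.2, 7.41 and 6.97 CPM per kb. For 24 of 30 further endoderm genes the medians were 8.48, 13.2 and 11.2 CPM per kb. The nearest Sox7 and Pdgfra summits lay just beyond, at 1001 and 1025 bp. Peaks at other annotated starts were not counted. Of these, the Sox17 peak at 3935 bp read 12.1, 18.2 and 17.9 CPM per kb in the same lines. Pdgfra at 3610 bp read 11.8, 11.7 and 11.9, Gata4 at 26292 bp 3.38, 7.2 and 6.01, and Gata6 at 7025 bp 2.62, 3.43 and 3.99. The ranges overlapped: in NANOG-FKBP cells the pluripotency genes read 0.71 to 47.5 CPM per kb and the further endoderm genes 1.4 to 34.1, so that single starts do not separate the lists. These are levels of accessibility and not of expression. In bulk cells a smaller share of cells with an open site and less opening in every cell cannot be told apart.

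Members lay mostly outside coding sequence: 36 summits were intronic, 23 intergenic and 7 in exons or untranslated regions. Of the 66 summits, 28 lay upstream of the 5′ end. Each peak is named here by its gene and the signed distance of its summit from the 5′ end. Coordinates are in mm10, and genes are those of GENCODE. The Dab2 window was the poorest, with no summit nearer to its 5′ end than 23711 bp.

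The results below turn on a few of these peaks, and for 7 of them the 200 bases around the summit are shown on the plus strand. They are those with the lowest adjusted p among the leading calls outside exons, meaning up to 3 lost and 3 gained peaks of each line at 2 and 24 h and the leading peak of each locus. Capitals mark matches on either strand to 5 motifs. These were the SOX motif CATTGT and its second form CTTTGT, the POU octamer ATGCAAAT, the SOX-POU composite TTGTNATGC, the GATA motif AGATAA and its second form TGATAA, and the FOX motif TGTTTAC. The composite can share bases with the SOX and octamer motifs. The peaks are Sox7 −7.0 kb (chr14:63936586-63936785), Sox7 +49.8 kb (chr14:63993337-63993536), Foxa2 −6.5 kb (chr2:148053389-148053588), Sox17 +25.5 kb (chr1:4471714-4471913), Sox17 −46.8 kb (chr1:4544071-4544270), Dab2 −39.7 kb (chr15:6260034-6260233) and Pdgfra −2.1 kb (chr5:75150078-75150277).
Sox7 −7.0 kb: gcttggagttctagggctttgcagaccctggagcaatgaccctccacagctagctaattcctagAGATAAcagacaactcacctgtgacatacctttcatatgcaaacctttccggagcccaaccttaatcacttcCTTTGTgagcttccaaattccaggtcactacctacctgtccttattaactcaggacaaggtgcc
Sox7 +49.8 kb: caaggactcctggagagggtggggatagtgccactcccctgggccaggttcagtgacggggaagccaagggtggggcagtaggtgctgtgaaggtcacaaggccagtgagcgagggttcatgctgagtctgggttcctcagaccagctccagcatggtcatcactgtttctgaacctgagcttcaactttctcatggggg
Foxa2 −6.5 kb: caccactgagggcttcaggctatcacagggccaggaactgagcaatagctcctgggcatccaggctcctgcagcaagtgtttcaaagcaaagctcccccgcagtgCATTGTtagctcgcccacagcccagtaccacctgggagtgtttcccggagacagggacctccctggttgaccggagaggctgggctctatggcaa
Sox17 +25.5 kb: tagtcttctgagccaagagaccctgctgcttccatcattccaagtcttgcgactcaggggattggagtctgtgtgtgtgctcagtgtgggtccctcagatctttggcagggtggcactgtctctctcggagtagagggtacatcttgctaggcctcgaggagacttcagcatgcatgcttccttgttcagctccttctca
Sox17 −46.8 kb: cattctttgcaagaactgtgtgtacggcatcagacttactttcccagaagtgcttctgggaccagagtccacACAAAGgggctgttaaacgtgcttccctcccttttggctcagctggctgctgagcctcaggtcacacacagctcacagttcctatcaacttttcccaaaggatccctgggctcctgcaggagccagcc
Dab2 −39.7 kb: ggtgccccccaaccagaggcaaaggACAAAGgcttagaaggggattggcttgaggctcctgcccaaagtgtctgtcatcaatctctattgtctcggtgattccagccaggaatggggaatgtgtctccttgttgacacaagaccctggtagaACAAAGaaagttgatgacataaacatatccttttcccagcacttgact
Pdgfra −2.1 kb: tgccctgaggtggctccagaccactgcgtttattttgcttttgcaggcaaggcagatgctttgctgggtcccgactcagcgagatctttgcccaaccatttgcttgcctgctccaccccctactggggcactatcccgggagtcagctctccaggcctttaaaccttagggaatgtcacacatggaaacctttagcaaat
The first had a SOX match 36 bp right of its summit and a GATA match 36 bp left of it. Outside this window, the same peak also held a POU octamer. Over whole peaks, 4.55% of the members and 4.94% of all peaks held an octamer. Dab2 −39.7 kb held 2 SOX matches, and Foxa2 −6.5 kb and Sox17 −46.8 kb held 1 each. No searched motif lay in the windows of Sox7 +49.8 kb, Sox17 +25.5 kb and Pdgfra −2.1 kb. Over all 66 members 28.8% of these windows held a SOX match, against 25.5% of the windows of 184800 peaks on assembled chromosomes. A GATA match was found in 9.09% of the member windows and 10.9% of all windows, an octamer in 1.52% and 2.05%, a composite in 1.52% and 0.939%, and a FOX match in 3.03% and 2.62%. These shares were not tested.

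At the Gata6 start, no change after NANOG depletion passed the test. The peak summit lay 329 bp downstream of the 5′ end (chr18:11051449-11055406), in an intron of Gata6. NT libraries of NANOG-FKBP cells gave 18.1 and 32.9 CPM. The treated libraries gave 22.7, 24.7 and 37.0 CPM at 2 h, 30.4, 19.9 and 24.1 CPM at 6 h, and 30.5, 26.9 and 26.6 CPM at 24 h. The treated values lay within or close to the range of the 2 NT values, which themselves differed widely. The log2 fold changes were 0.15 (SE 0.23), 0.00 (SE 0.22) and 0.15 (SE 0.23), with adjusted p of 1, 1 and 0.9 (edgeR quasi-likelihood test, Benjamini-Hochberg over all 166430 peaks tested).

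After OCT4 depletion the same Gata6 start peak gained accessibility at 24 h. NT libraries gave 25 and 24.7 CPM, and values were 31.3 and 27.9 at 2 h, 30.1 and 26.1 at 6 h and 45.0 and 34.0 at 24 h. Both 24 h libraries lay above both NT libraries, with a log2 fold change of 0.69 (SE 0.24, adjusted p = 0.0312), a 1.61-fold rise in a comparison where 10.8% of all tested peaks were gained. After SOX2 depletion it read 15.6 and 17.7 CPM in NT and 16.3 and 21.3 CPM at 24 h, and the log2 fold change of 0.20 (SE 0.25) did not pass the test. Of the other 9 tested peaks around Gata6, only the intronic peak at +24.4 kb was called, again as a gain at 24 h of OCT4 depletion (log2 fold change 1.38, SE 0.50, adjusted p = 0.038). Its values rose from 0.588 and 0.625 CPM, or 7 and 11 counts, to 1.38 and 1.80 CPM, or 9 and 11 counts, and the call ended without any 1 of the 4 OCT4-FKBP libraries at NT and 24 h (1.18 to 1.57), and with total counts (1.25), DESeq2 (1.47) or each line fitted alone (1.40).

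The start peaks of 2 other genes were called in the same comparison. Next to Gata6, Pdgfra +1.0 kb rose in OCT4-FKBP cells from 5.04 and 4.54 CPM to 9.07 and 7.53 CPM at 24 h (log2 fold change 0.81, SE 0.28, adjusted p = 0.0317). Gata4 +26.3 kb, which lies 129 bp from another annotated Gata4 start and was singled out after its values were seen, went from 16.8 and 17.2 CPM to 34.4 and 20.0 CPM (log2 fold change 0.70, SE 0.25, adjusted p = 0.0356). No start peak was called at any time in SOX2-FKBP or NANOG-FKBP cells. Sox17 +0.4 kb (log2 fold change 0.36, SE 0.29), Foxa2 +0.6 kb (0.41, SE 0.27) and Sox7 −1.0 kb (0.07, SE 0.21) did not pass the test at 24 h of OCT4 depletion either. The peaks nearest the 5′ ends of Gata4 (+3.0 kb) and Dab2 (−23.7 kb) were called in none of the 9 comparisons. Over the 8 members within 1 kb of any annotated start of their gene, which are Gata6 +0.3 and +7.0 kb, Gata4 +26.3 kb, Pdgfra +1.0 and +3.6 kb, Sox17 +0.4 and +3.9 kb and Foxa2 +0.6 kb, the median log2 fold change was 0.47 at 24 h of OCT4 depletion, whereas the median of all tested peaks was −0.01. The latter include sites away from gene starts. A median over the starts of other genes was not taken, so whether these 8 differ from other starts was not tested.

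The 3 gains at starts were sensitive to scaling and to single libraries, and with each line fitted alone Gata6 (0.71) and Gata4 (0.72) were not called. With libraries scaled by total counts, the log2 fold changes fell to 0.55 for Gata6, 0.68 for Pdgfra and 0.55 for Gata4, none called, while the median of all peaks moved to −0.14. The Gata6, Pdgfra and Gata4 calls also ended without OCT4-FKBP 24 h replicate 1 (0.48, 0.69 and 0.26) or without either OCT4-FKBP NT library (0.69 and 0.66 for Gata6, 0.88 and 0.72 for Pdgfra, and 0.67 and 0.69 for Gata4). The Gata4 call stood at the threshold and also ended when any 1 of 7 SOX2-FKBP libraries, which are not in the comparison, was left out (0.67).

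**Figure D1:**
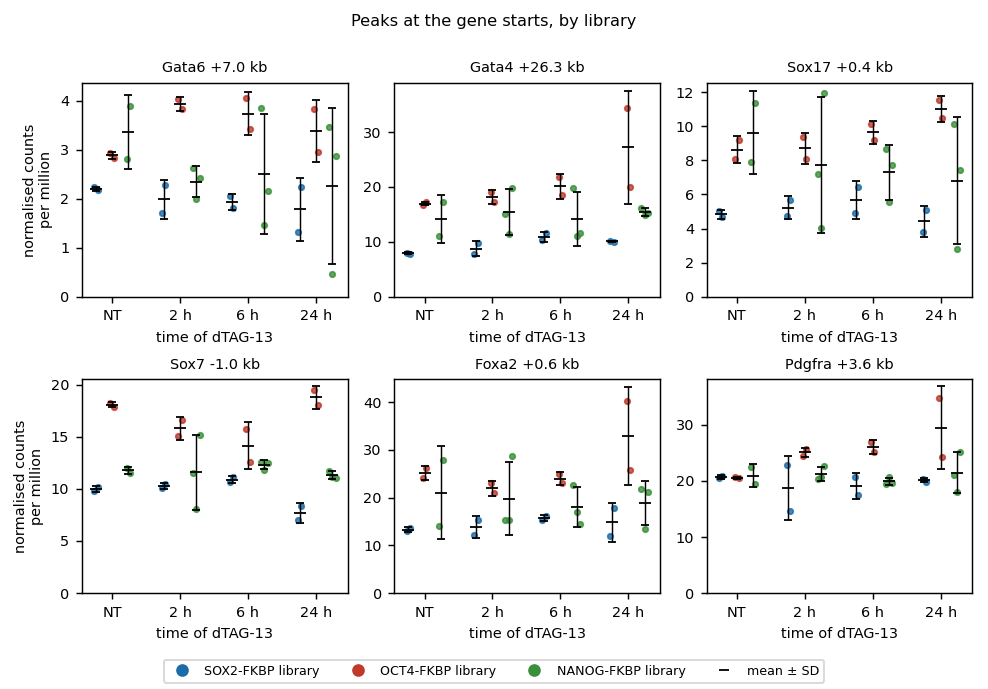
CPM (vertical axis) at a start peak of each of 6 genes, by hours of dTAG-13 (horizontal axis). The peak drawn is the member nearest any annotated start of its gene. Points are libraries coloured by line and bars are the mean ± SD. The panels are Gata6 +7.0 kb, Gata4 +26.3 kb, Sox17 +0.4 kb, Sox7 −1.0 kb, Foxa2 +0.6 kb and Pdgfra +3.6 kb. Gata6 +0.3 kb and Pdgfra +1.0 kb, both called at 24 h of OCT4 depletion, are not drawn. At Gata6 +7.0 kb the OCT4-FKBP mean was 2.89 CPM in NT and 3.39 CPM at 24 h.

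Across all tested members the 3 depletions differed in how many peaks they touched, as they did over all tested peaks. Of 61 tested members, 20 were called in at least 1 of the 9 comparisons with NT and 41 in none. OCT4 depletion accounted for 19 of the 20, with 10 lost and 9 gained at 1 time or more. SOX2 depletion gave 5, with 4 lost and 1 gained, and NANOG depletion gave 2, both lost. The share of all tested peaks called in at least 1 of the 9 comparisons was not taken. Nor were the losses and gains of all peaks at 1 time or more, so these member counts have no such background. At 1 time or more, 45530 of all 166430 tested peaks were called in OCT4-FKBP cells, 28147 in SOX2-FKBP cells and 4630 in NANOG-FKBP cells. In this fit of all 3 lines, the 5 members called in SOX2-FKBP cells were also called in OCT4-FKBP cells, and were 26.3% of the members called there. Over all tested peaks, 60.6% of those called in SOX2-FKBP cells were called in OCT4-FKBP cells too, and 37.5% the other way round. The direction was the same for 4 of the 5 members and for 93.6% of all the shared peaks, with Dab2 −39.7 kb the member that moved in opposite directions. Pdgfra +37.3 kb was called in OCT4-FKBP and NANOG-FKBP cells in opposite directions. The other member called in NANOG-FKBP cells was not called in OCT4-FKBP cells, and neither was called in SOX2-FKBP cells in this fit. Of all peaks called in NANOG-FKBP cells, 67.8% were called in OCT4-FKBP cells too, and 84.2% of the shared ones moved the same way. In SOX2-FKBP cells 60.1% of them were called. The comparisons at different times of a line share their NT libraries.

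These counts have to be read against the share of all tested peaks called. At 2, 6 and 24 h of OCT4 depletion 2, 6 and 9 members were lost, where 5.1%, 7.97% and 12.7% of all peaks were lost. In the other direction 0, 2 and 8 members were gained, with 1.92%, 4.12% and 10.8% of all peaks gained. The 9 and 8 members at 24 h were 14.8% and 13.1% of those tested, close to the background. After SOX2 depletion 1, 2 and 4 members were lost, with 5.06%, 6.83% and 10.9% of all peaks, and 0, 1 and 1 were gained, with 0.574%, 1.18% and 4.87%. The 4 members at 24 h were 6.56% of those tested. After NANOG depletion 0, 1 and 2 members were lost against 0.938%, 1.08% and 2.25% of all peaks, and no member was gained, where 0.0162%, 0.0367% and 0.288% of all peaks were. At an unadjusted p under 0.05 (edgeR) NANOG-FKBP cells had 6, 5 and 10 members at 2, 6 and 24 h, or 9.84%, 8.2% and 16.4% of those tested, against 7.32%, 7.78% and 11.3% of all peaks. For SOX2-FKBP cells the members under it numbered 6, 8 and 11, or 9.84%, 13.1% and 18% of those tested. The shares of all peaks were larger there, at 14.8%, 17.8% and 27.7%. For OCT4-FKBP cells the members under it numbered 9, 17 and 21, or 14.8%, 27.9% and 34.4%. All peaks gave 16.2%, 22.1% and 33.8% in OCT4-FKBP cells. The medians of the members lay between −0.08 and 0.13 in the 9 comparisons, against −0.01 to 0.08 over all tested peaks. Scaling by total counts left 9 members lost at 24 h of OCT4 depletion but lowered those gained from 8 to 2.

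**Figure D2:**
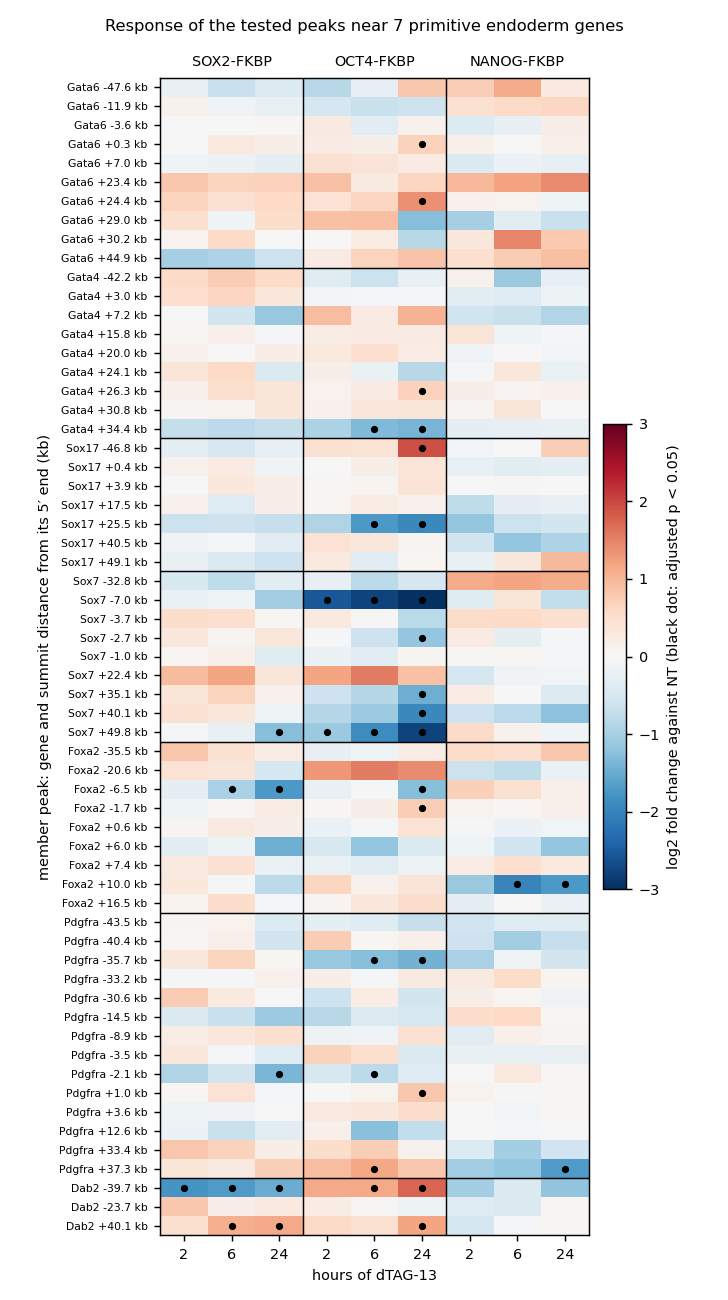
Log2 fold change against NT (colour, from −3 to 3, with values beyond these limits drawn at the limit) of the 61 tested members, arranged by gene and by distance from the 5′ end, in the 9 comparisons of line and time. Dots mark an adjusted p under 0.05. The marked cells lie mostly in the OCT4-FKBP columns, with the Sox7 locus the one holding most losses.

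Sox7 was the locus with the most losses after OCT4 depletion. These fell on both sides of the gene, with those downstream in introns of neighbouring genes. At 24 h, 5 of its 9 tested peaks were lost and none gained, and the median log2 fold change of the locus was −1.15. The peak upstream at −7.0 kb (shown above) read 10.2 and 10.3 CPM in the NT libraries of OCT4-FKBP cells. It fell to 1.57 and 1.85 CPM at 2 h, 1.04 and 1.87 CPM at 6 h and 1.23 and 0.327 CPM at 24 h. All 6 treated libraries lay far below both NT libraries. The log2 fold changes were −2.55 (SE 0.34, adjusted p = 1.46e-06), −2.79 (SE 0.34, adjusted p = 6.33e-08) and −3.66 (SE 0.45, adjusted p = 6.51e-08), and the calls held with each library left out in turn. A 5.86-fold loss had thus taken place by the first time sampled in this line.

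Sox7 +49.8 kb followed more slowly. It lies in an intron of the neighbouring gene Rp1l1, whose start is nearer to it than that of Sox7, and it is the member closest to the 50 kb limit, at 49764 bp. In OCT4-FKBP cells it fell from 12.7 and 14.8 CPM to 5.21 and 7.26 at 2 h, 3.13 and 4.24 at 6 h and 1.69 and 2.29 at 24 h. The groups did not overlap, and the log2 fold changes were −1.11 (SE 0.30, adjusted p = 0.013), −1.88 (SE 0.31, adjusted p = 1.58e-05) and −2.77 (SE 0.39, adjusted p = 7.6e-07). The call at 2 h ended without OCT4-FKBP NT replicate 2 (−0.98) or 2 h replicate 1 (−0.91). The peak just beyond the limit, 51690 bp upstream of Sox7 in an intron of Pinx1, was called in no comparison.

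The other 3 lost peaks at Sox7 were called only at 24 h. Sox7 −2.7 kb fell from 7.47 and 8.86 CPM to 3.84 and 3.44 CPM (log2 fold change −1.15, SE 0.27, adjusted p = 0.00137). Sox7 +35.1 kb (−1.48, SE 0.49, adjusted p = 0.0224) and Sox7 +40.1 kb (−1.94, SE 0.62, adjusted p = 0.0192) fell from lower levels, and their calls ended without OCT4-FKBP NT replicate 1 (−1.40 and −1.74), and without 24 h replicate 1 (−1.01) for the former or 24 h replicate 2 (−1.32) for the latter. DESeq2 did not call Sox7 +40.1 kb (−1.92). Sox7 +35.1 kb and Sox7 +40.1 kb lie in introns of the coding gene 4930578I06Rik, 8703 and 3747 bp from its nearest start. They are 35127 and 40083 bp from the 5′ end of Sox7. Sox7 +35.1 kb read 10.2 to 24.7 CPM in the 12 SOX2-FKBP libraries and at most 4.42 CPM in the other lines, and levels between lines were not tested. The start peak between these sites, Sox7 −1.0 kb, read 18.2 and 17.9 CPM in NT and 19.5 and 18 CPM at 24 h.

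Peaks at 4 other loci also lost accessibility in OCT4-FKBP cells. Sox17 +25.5 kb, in the intergenic stretch past the 3′ end of Sox17, read 3.78 and 7.21 CPM in NT, 3.05 and 2.90 CPM at 2 h, 1.63 and 1.75 CPM at 6 h and 0.768 and 2.13 CPM at 24 h. The log2 fold changes were −1.71 (SE 0.32, adjusted p = 0.000141) at 6 h and −1.94 (SE 0.40, adjusted p = 0.000312) at 24 h, and the call at 6 h ended without OCT4-FKBP NT replicate 2 (−1.12). Foxa2 −6.5 kb fell at 24 h from 9.23 and 5.68 CPM to 3.54 and 2.46 CPM (−1.27, SE 0.32, adjusted p = 0.00307), a call that ended without NT replicate 1 (−0.90) or 24 h replicate 2 (−1.04). Gata4 +34.4 kb, an intronic peak, fell from 3.27 and 2.73 CPM to 1.37 and 0.997 CPM at 6 h and 1.38 and 0.819 CPM at 24 h (−1.31 and −1.40, adjusted p = 0.017 and 0.0283). Pdgfra −35.7 kb, the single member whose window held the SOX-POU composite, and Pdgfra −2.1 kb were called at 6 h with −1.27 (SE 0.40, adjusted p = 0.0286) and −0.78 (SE 0.26, adjusted p = 0.044). Pdgfra −35.7 kb was also called at 24 h (−1.42, SE 0.51, adjusted p = 0.0387). None of these Gata4 and Pdgfra calls was made by DESeq2 (Wald test). Each also ended without OCT4-FKBP NT replicate 1, among other libraries, with log2 fold changes of −1.19 and −1.28 at 6 and 24 h for Gata4 +34.4 kb, −1.07 and −1.23 for Pdgfra −35.7 kb, and −0.86 at 6 h for Pdgfra −2.1 kb. The Pdgfra −2.1 kb call ended in 17 of 27 refits, most of them without a library outside the comparison (−0.76).

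Gains after OCT4 depletion away from the starts were led by Sox17 −46.8 kb, an intergenic peak. It read 3.36 and 1.76 CPM in NT, 5.01 and 2.05 CPM at 2 h, 4.25 and 2.31 CPM at 6 h and 9.84 and 9.0 CPM at 24 h. Only the 24 h libraries stood clear of NT, with a log2 fold change of 1.94 (SE 0.40, adjusted p = 0.000353), and the call held with each library left out in turn. Dab2 −39.7 kb rose from 1.93 and 1.14 CPM to 3.34 and 3.17 CPM at 2 h, 2.94 and 3.55 CPM at 6 h and 3.84 and 6.06 CPM at 24 h. Its log2 fold changes were 1.13 (SE 0.37, adjusted p = 0.0552), 1.13 (SE 0.36, adjusted p = 0.0307) and 1.74 (SE 0.38, adjusted p = 0.000694). Dab2 +40.1 kb, in an intron of Dab2, rose at 24 h from 0.839 and 1.70 CPM to 3.23 and 2.78 CPM (1.19, SE 0.40, adjusted p = 0.0242). Foxa2 −1.7 kb rose from 10.5 and 8.91 CPM to 17.8 and 13.9 CPM (0.73, SE 0.23, adjusted p = 0.0164). Scaling by total counts ended the calls of Dab2 −39.7 kb at 6 h (1.09), Dab2 +40.1 kb (1.05) and Foxa2 −1.7 kb (0.60). Without NT replicate 2 the log2 fold change was 0.78 for Dab2 −39.7 kb at 6 h and 0.60 for Foxa2 −1.7 kb, and without NT replicate 1 it was 0.83 for Dab2 +40.1 kb, with none of these called. Other OCT4-FKBP libraries also ended them: at 6 h either treated library for Dab2 −39.7 kb (1.26 and 1.02), and 24 h replicate 1 for Dab2 +40.1 kb (1.09) and Foxa2 −1.7 kb (0.55).

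In the fit of all 3 lines SOX2 depletion left most of these peaks uncalled, and the earliest member to respond was Dab2 −39.7 kb, which OCT4 depletion opened. It fell from 3.40 and 4.50 CPM in NT to 1.01 and 1.22 CPM at 2 h, 1.27 and 1.08 CPM at 6 h and 1.33 and 1.36 CPM at 24 h. All 6 treated libraries lay below both NT libraries. The log2 fold changes were −1.76 (SE 0.42, adjusted p = 0.00447), −1.71 (SE 0.41, adjusted p = 0.00375) and −1.50 (SE 0.41, adjusted p = 0.00762). Single libraries decided the calls at 2 h (−1.71 without 2 h replicate 1), at 6 h (−1.66 without 6 h replicate 2) and at 24 h (−1.35 without NT replicate 2, and −1.52 without either 24 h library).

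In the fit of the 12 SOX2-FKBP libraries alone, Dab2 −39.7 kb had a log2 fold change of −1.07 (SE 0.34, adjusted p = 0.0782) at 0.5 h and −1.19 (SE 0.35, adjusted p = 0.0276) at 1 h. It was the single member called at 1 h, when 5.46% of the 160432 peaks tested were lost and 0.889% gained. At 0.5 h none of the 59 tested members was called by edgeR, 3 had an unadjusted p under 0.05 (5.08%, against 11.8% of all peaks), and 3.14% of all peaks were lost and 0.158% gained. DESeq2 called no member at 0.5 or 1 h.

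The other 4 members called in SOX2-FKBP cells moved later. Foxa2 −6.5 kb read 7.69 and 12.1 CPM in NT, 7.65 and 8.13 CPM at 2 h, 5.76 and 4.05 CPM at 6 h and 3.28 and 2.53 CPM at 24 h. Its log2 fold changes at 6 and 24 h were −0.98 (SE 0.28, adjusted p = 0.0205) and −1.72 (SE 0.30, adjusted p = 4.47e-05). The 24 h call held with each library left out in turn, whereas the 6 h call ended without NT replicate 2 (−0.70) or 6 h replicate 2 (−0.81) and with DESeq2 (−0.97). Sox7 +49.8 kb fell at 24 h from 12.8 and 12.3 CPM to 5.94 and 4.28 CPM (−1.28, SE 0.32, adjusted p = 0.00364), a call that ended without 24 h replicate 2 (−1.06). Pdgfra −2.1 kb, upstream of the Pdgfra start, fell from 3.31 and 2.90 CPM to 0.922 and 1.46 CPM (−1.36, SE 0.35, adjusted p = 0.00425), and its call ended without NT replicate 1 (−1.31) or 24 h replicate 1 (−1.11). Dab2 +40.1 kb was the gain: from 3.93 and 4.21 CPM it rose to 10.3 and 6.87 CPM at 6 h and 8.71 and 9.05 CPM at 24 h (1.09 and 1.15, both SE 0.30, adjusted p = 0.0147 and 0.00585). Without NT replicate 1 its log2 fold changes were 0.96 and 1.03, neither called, and at 6 h the call also ended without NT replicate 2 (1.07) or 6 h replicate 1 (0.71).

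The fit of the 12 SOX2-FKBP libraries alone called more members: 8 lost and 2 gained at 24 h, where 14.1% and 9.17% of all peaks were. At 2 h it called 1 lost member, with 7.28% of all peaks lost and 1.46% gained, and at 6 h 3 lost and 1 gained, with 9.28% and 2.66%. The members at 24 h were the 5 above and 5 others. Sox7 −7.0 kb (−1.07, SE 0.27, adjusted p = 0.00268) and Sox17 +25.5 kb (−0.73, SE 0.24, adjusted p = 0.0211) were lost, as they were in OCT4-FKBP cells. Foxa2 +6.0 kb (−1.48, SE 0.48, adjusted p = 0.0228) and Pdgfra −14.5 kb (−1.13, SE 0.35, adjusted p = 0.0174) were lost as well, and neither was called in OCT4-FKBP cells. Pdgfra +37.3 kb was gained (0.65, SE 0.19, adjusted p = 0.0119), a peak that NANOG-FKBP cells lost at the same time. In the fit of all 3 lines its change was 0.70 (SE 0.33, adjusted p = 0.151). Sox17 +25.5 kb was also called at 6 h (adjusted p = 0.0488).

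**Figure D3:**
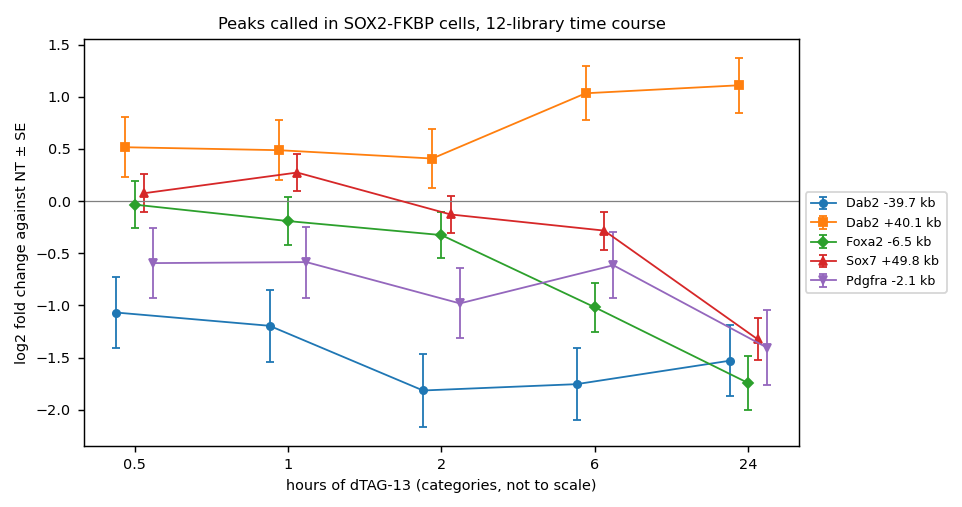
Log2 fold change against NT ± SE (vertical axis) of the 5 members called in SOX2-FKBP cells in the 27-library fit, with values from the 12-library fit, over the hours of dTAG-13 (horizontal axis, categories). Dab2 −39.7 kb is at −1.07 by 0.5 h, while Foxa2 −6.5 kb and Sox7 +49.8 kb reach their lowest values at 24 h.

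NANOG depletion was followed by 2 losses among the members, both at intronic peaks. Foxa2 +10.0 kb, in an intron of the gene 9030622O22Rik downstream of Foxa2, read 3.53 and 3.73 CPM in NT and 1.53, 2.67 and 1.62 CPM at 2 h. It read 1.23, 0 and 0.722 CPM at 6 h and 1.07, 0.464 and 1.31 CPM at 24 h, and every treated library lay below both NT libraries. The values rest on 25 and 22 counts in NT and on at most 18 counts in a treated library. The log2 fold changes at 6 and 24 h were −1.97 (SE 0.43, adjusted p = 0.009) and −1.73 (SE 0.41, adjusted p = 0.0109). Both calls ended without NT replicate 1 (−2.01 and −1.76) or NT replicate 2 (−1.96 and −1.71), and the 24 h call also without 24 h replicate 1 (−1.72).

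Pdgfra +37.3 kb, in an intron of Pdgfra, fell over the course of NANOG depletion. It read 12.1 and 10.8 CPM in NT, 6.28, 5.35 and 4.85 CPM at 2 h, 5.63, 5.90 and 3.85 CPM at 6 h and 4.62, 1.86 and 2.88 CPM at 24 h. The groups did not overlap from 2 h on, but only the 24 h change was called, at a log2 fold change of −1.69 (SE 0.37, adjusted p = 0.00501). At 2 and 6 h it was −1.04 and −1.16, with adjusted p of 0.29 and 0.152. The 24 h call ended without NT replicate 1 (−1.60) or 24 h replicate 3 (−1.55). In OCT4-FKBP cells this peak read 2.52 and 7.21 CPM in NT and 7.05 and 15.5 CPM at 6 h, a called gain of 1.17 (SE 0.35, adjusted p = 0.0172) although the libraries overlapped, which ended without NT replicate 1 (0.65) or 6 h replicate 2 (0.52), and with each line fitted alone (1.18). The calls of both peaks in NANOG-FKBP cells held with the 3 shallow libraries left out together.

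**Figure D4:**
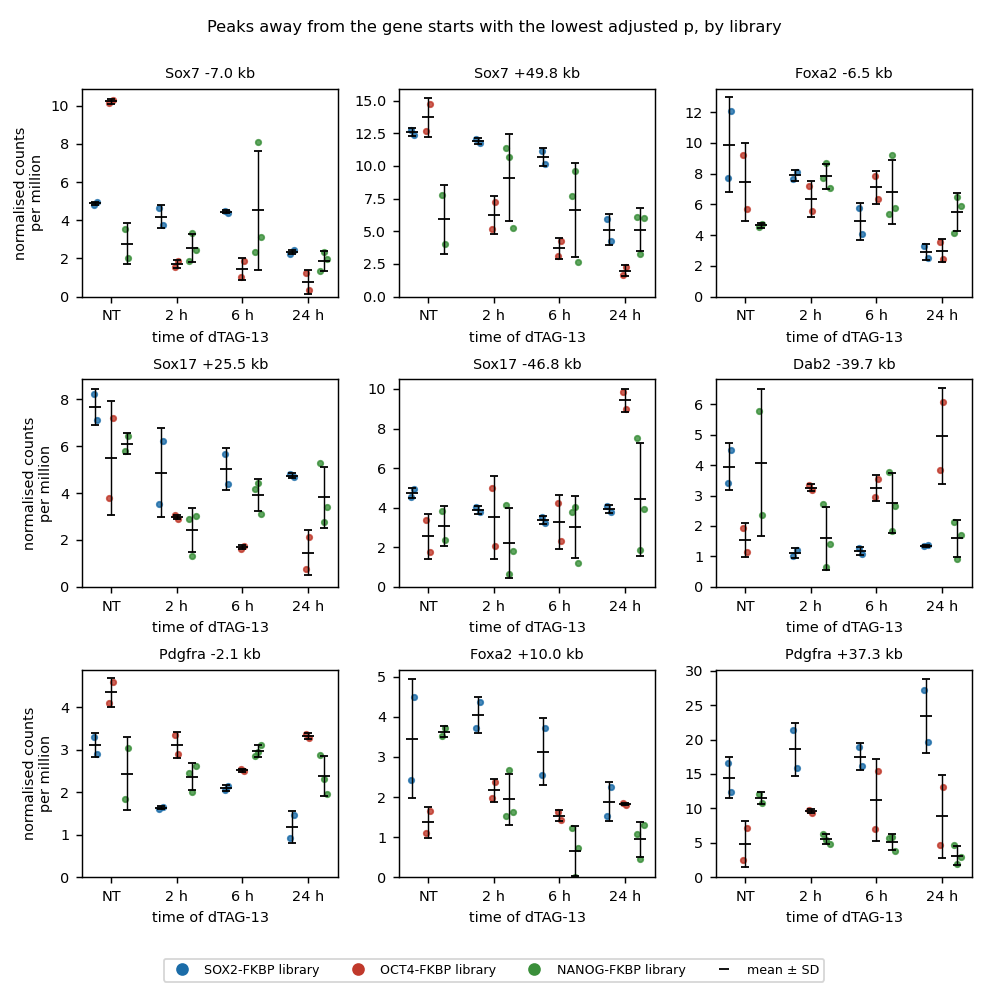
CPM (vertical axis) at the 7 peaks whose sequence is printed and the 2 called in NANOG-FKBP cells, by hours of dTAG-13 (horizontal axis). Points are libraries coloured by line and bars are the mean ± SD. Sox7 −7.0 kb drops from 10.2 and 10.3 to 1.57 and 1.85 within 2 h in OCT4-FKBP cells, and Dab2 −39.7 kb moves down in SOX2-FKBP and up in OCT4-FKBP cells.

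Whether the response itself differed between lines was tested as the change in one line minus that in another. These differences were not refitted with single libraries left out. Between SOX2-FKBP and OCT4-FKBP cells 2, 3 and 4 members differed at 2, 6 and 24 h, where 1.57%, 2.73% and 2.77% of all peaks did. Sox7 −7.0 kb was among them at each time: its loss was smaller in SOX2-FKBP cells by 2.35 (SE 0.49), 2.66 (SE 0.48) and 2.62 (SE 0.62) on the log2 scale, with adjusted p of 0.00441, 0.000439 and 0.0115. In SOX2-FKBP cells this peak read 4.83 and 4.94 CPM in NT and 2.25 and 2.43 CPM at 24 h, and its log2 fold change of −1.03 (adjusted p = 0.0511) was not called in this fit, though it was in that of the SOX2-FKBP libraries alone. For Dab2 −39.7 kb the difference was −2.89 (SE 0.56), −2.84 (SE 0.55) and −3.24 (SE 0.56), with adjusted p of 0.00196, 0.000993 and 0.00035. The remaining differences were at Sox7 +49.8 kb at 6 h, and at Sox17 −46.8 kb and Sox7 −2.7 kb at 24 h.

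Between NANOG-FKBP and OCT4-FKBP cells 4, 4 and 6 members differed, with 2.52%, 4.95% and 8.89% of all peaks. Sox7 −7.0 kb differed by 2.18 (SE 0.56), 3.16 (SE 0.52) and 2.91 (SE 0.66), with adjusted p of 0.0202, 6.62e-05 and 0.0026. Its NANOG-FKBP libraries read 3.53 and 2.03 CPM in NT and between 1.32 and 8.11 CPM after treatment, the highest being a shallow library. Pdgfra +37.3 kb differed by −1.97 (SE 0.51), −2.33 (SE 0.50) and −2.51 (SE 0.53), with adjusted p of 0.0226, 0.00212 and 0.0012. Of the changes against NT in these lines, only those at 6 h in OCT4-FKBP and 24 h in NANOG-FKBP cells were called. The OCT4-FKBP NT libraries at this peak were far apart, with a mean of 4.86 CPM and SD of 3.32. Sox7 +49.8 kb differed at all 3 times too, Dab2 −39.7 kb at 2 and 24 h, Foxa2 +10.0 kb at 6 and 24 h and Foxa2 −6.5 kb at 24 h. Between NANOG-FKBP and SOX2-FKBP cells 0, 2 and 2 members differed, with 1.75%, 3.27% and 6.78% of all peaks, namely Foxa2 −6.5 kb and Foxa2 +10.0 kb at 6 h and Foxa2 −6.5 kb and Pdgfra +37.3 kb at 24 h. At the Gata6 start no difference between lines passed the test at any time.

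Other gene groups set these counts in context at 24 h of OCT4 depletion. Around 30 further endoderm genes, such as Hnf4a, Cubn and Lama1, 11.2% of 402 tested peaks were lost and 12.4% gained, close to the members. Around 15 pluripotency genes, such as Klf4 and Esrrb, 30.9% of 337 peaks were lost and 4.15% gained. Around 15 trophectoderm genes, such as Cdx2 and Gata3, 12.3% of 260 peaks were lost and 13.5% gained. At 24 h of NANOG depletion 1.74% of the endoderm peaks were lost and 0.249% gained.

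Start peaks of other genes were ranked by the likeness of their 9 log2 fold changes to that of each member gene, over 13624 or more start peaks. The 9 values share NT libraries within a line, and Pearson's r is given as a description. For Gata6 the most alike were Pxk (r = 0.988), Fry (0.976) and Nkx3-2 (0.972). For Foxa2 they were Vstm2b (0.984), Eya4 (0.984) and Pcdha3 (0.98), and for Sox17 Nrp1 (0.962), Ptch1 (0.958) and Atoh8 (0.957). For Pdgfra they were Cyp26a1 (0.972), Rhox11 (0.964) and Kdr (0.952), and for Sox7 Sox9 (0.923), Pcdhb8 (0.922) and Ovol2 (0.877).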

How the data were processed

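ATACseq libraries of the 3 degron lines were analysed from files the authors deposited. Per the labels and the study's methods, reads were mapped to mm10 with BWA (0.7.17-r1188 in the processing notes, which also list Picard 2.12.0 and SAMtools 1.10). The deposited table holds raw read counts per peak for 31 libraries, not normalized. The authors' peak list was called on pooled libraries by MACS2, which also gave the fold enrichment (a ratio) and the −log10 q-value of each peak, deposited beside the summit and not tested here. The authors removed duplicates and reads of low mapping quality before counting, and whether insertion sites were shifted is not given in the sources used here. Signal tracks and the other data types of the 45 samples were not used here.

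Here a summit was placed at the peak start plus the summit offset and compared with the GENCODE 5′ end of the 7 genes. The peaks on assembled chromosomes ended within the chromosomes of the reference mm10 build. A peak entered the fit of 27 libraries if over 6 of them each had over 10 counts (166430 peaks, 61 of 66 members). It was fitted with edgeR 4.0.16 (TMM, glmQLFit with 1 mean per line and time, glmQLFTest). The 12 SOX2-FKBP libraries were also fitted alone (over 10 counts in at least 3 libraries, 160432 peaks, 59 members). P-values were adjusted by Benjamini-Hochberg over all peaks tested, with a threshold of 0.05, and lost or gained means past it with a lower or higher level than NT. CPM values are TMM-normalised, so changes in accessibility common to most peaks are scaled out, and CPM of a few counts carries the counting error of those counts. SE is the log2 fold change divided by the root of the F statistic. The edgeR script was tested on simulated data. DESeq2 1.42.0 was an alternative, with the others named in the closing section.

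The member genes, the gene lists and the motifs were chosen with earlier results of these data known. Named peaks were, by rule, the peak nearest each 5′ end, up to 3 lost and 3 gained per line at 2 and 24 h (NANOG also 6 h) with the lowest adjusted p, up to 3 per pair of lines at 24 h whose response differed, the lowest adjusted p of each locus, and the peaks just inside and outside 50 kb. Other called peaks and start peaks were named after their values were seen. Sequences are from the RefSeq GRCm38.p6 genome, the same assembly as mm10.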

Additional observations from a re-analysis of the deposited data

Results flagged for a closer look

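For 8 member peaks the response to depletion differed between lines at an adjusted p under 0.05 (edgeR interaction test), and the differences are given on the log2 scale. SOX2-FKBP minus OCT4-FKBP was 2.35, 2.66 and 2.62 at 2, 6 and 24 h for Sox7 −7.0 kb, and −2.89, −2.84 and −3.24 for Dab2 −39.7 kb. It was 1.66 at 6 h for Sox7 +49.8 kb, and at 24 h −2.18 for Sox17 −46.8 kb and 1.49 for Sox7 −2.7 kb.

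NANOG-FKBP minus SOX2-FKBP was 1.43 at 6 h and 1.88 at 24 h for Foxa2 −6.5 kb. It was −1.91 at 6 h for Foxa2 +10.0 kb and −2.4 at 24 h for Pdgfra +37.3 kb.

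NANOG-FKBP minus OCT4-FKBP at 2, 6 and 24 h was 2.18, 3.16 and 2.91 for Sox7 −7.0 kb, 1.7, 2.02 and 2.66 for Sox7 +49.8 kb, and −1.97, −2.33 and −2.51 for Pdgfra +37.3 kb. It was −2.15 at 2 h and −2.93 at 24 h for Dab2 −39.7 kb, −2.11 at 6 h and −2.12 at 24 h for Foxa2 +10.0 kb, and 1.43 at 24 h for Foxa2 −6.5 kb. The 3 lines share no libraries, but each factor is represented by 1 line. None of these differences was refitted with single libraries left out.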

How the results depend on the processing

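Groups of 2 or 3 libraries limit the calls, and the shallow NANOG-FKBP libraries limit what can be seen after NANOG depletion. With each library left out in turn, members lost ranged from 0 to 1, 0 to 2 and 2 to 7 at 2, 6 and 24 h of SOX2 depletion, 1 to 3, 2 to 6 and 4 to 9 of OCT4 depletion, and 0 to 0, 0 to 1 and 0 to 2 of NANOG depletion. Members gained ranged from 0 to 0, 0 to 1 and 0 to 1 (SOX2), 0 to 1, 0 to 2 and 3 to 9 (OCT4), and stayed at 0 (NANOG). Of 39 called changes of named peaks, 9 were no longer called with DESeq2, 8 with total counts, 7 with each line fitted alone, 1 with DESeq2 size factors and 1 without a filter. With at least 10 counts in every library 2 of the 6 that could be tested were not called, and no alternative reversed a direction.

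Same-numbered libraries deviated together between NT and treated groups with correlations of −0.06 to 0.08 (NANOG-FKBP), 0.13 to 0.18 (SOX2-FKBP) and 0.46 to 0.61 (OCT4-FKBP), over no more than 2 numbers in NT. The labels do not say what the numbers mark, so the main fit did not use them as pairs. It thereby leaves out a pattern that was strongest in OCT4-FKBP cells. With the replicate block all 39 calls remained. Another 20 changes against NT and 14 differences between lines at named peaks were called with it alone, among them Sox7 −7.0 kb at 24 h of SOX2 depletion (adjusted p = 0.00984), Dab2 −39.7 kb at 2 h of OCT4 depletion (0.0033) and Pdgfra +37.3 kb at 24 h of SOX2 (0.00378) and OCT4 depletion (0.00592). Members lost were 8 (SOX2, 24 h), 6 and 11 (OCT4, 2 and 6 h), 3 and 2 (NANOG, 2 and 6 h), 1 and 2 (SOX2, 0.5 and 1 h). Over all 166430 peaks the block called 23637 lost (SOX2, 24 h) and 12326 and 18082 (OCT4, 2 and 6 h). For NANOG at 2 and 6 h it called 3301 and 3778. Members gained with the block were 3 and 2 (SOX2, 6 and 24 h) and 3 (OCT4, 2 h), and responses differing were 7 (SOX2 against OCT4, 6 h), 1, 5 and 4 (NANOG against SOX2) and 8 (NANOG against OCT4, 6 h). Of all peaks the block called 6199 and 17338 gained (SOX2, 6 and 24 h) and 8607 (OCT4, 2 h).

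With at least 10 counts in every library, which left few members to test, members lost were 0, 1 and 2 (SOX2), 0, 0 and 1 (OCT4) and 0 and 0 (NANOG, 6 and 24 h), and those gained 0 and 0 (SOX2, 6 and 24 h) and 0 and 1 (OCT4, 6 and 24 h). Of all 33328 peaks tested there, 2316, 3391 and 5781 were lost (SOX2) and 2474, 3855 and 9167 (OCT4). At 6 and 24 h those lost were 179 and 668 (NANOG), and those gained 206 and 1464 (SOX2) and 1239 and 6872 (OCT4). With each line alone, 3 and 8 were lost (SOX2, 2 and 24 h), 2 and 2 gained (SOX2, 6 and 24 h), 1 and 5 gained (OCT4, 6 and 24 h) and 2 lost (NANOG, 6 h). The same comparisons over all peaks gave 13485 and 24702 lost and 5253 and 16811 gained (SOX2). They gave 4572 and 13610 gained (OCT4) and 1543 lost (NANOG). DESeq2 gave 1 lost (SOX2, 6 h), 3 lost and 1 gained (OCT4, 6 h) and 0 lost (SOX2, 1 h). Over all peaks it gave 9077 lost (SOX2, 6 h) and 10434 lost and 4754 gained (OCT4, 6 h). Its count over all peaks at 1 h is not given here. Total counts gave 1 and 2 gained (OCT4, 6 and 24 h), where 5000 and 12187 of all peaks were gained. Leaving out the 3 shallow libraries together, chosen after seeing the data, gave 1 gained (OCT4, 2 h), where 3413 of all peaks were gained.

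Within 25 kb of the 5′ ends, members lost were 0, 1 and 2 (SOX2), 1, 2 and 3 (OCT4) and 1 (NANOG, 24 h), and gained 0 and 0 (SOX2, 6 and 24 h) and 0 and 4 (OCT4, 6 and 24 h). Within 100 kb they were 3, 6 and 11 lost with 2 and 5 gained (SOX2), 15 lost at 24 h with 1, 5 and 15 gained (OCT4), and 1, 3 and 5 lost with 1 and 1 gained (NANOG). The numbers of peaks tested in these windows are not given here. Whether the counts depart from the shares of all peaks called was not tested. Beyond these constructions the causes were not tested.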
